A study of Rattus norvegicus with 5 samples.

Results

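The genes described are those of the ISG15 conjugation pathway, named by gene symbol: Isg15 itself, the activating enzyme Uba7, the conjugating enzyme Ube2l6, the ligase Herc6 and the protease Usp18. Probes were taken where the accession printed in the array files matched one of these genes in the RefSeq table for rat. This found 4 probes for 3 of the 5 genes, out of 30366 probes and 15167 genes named in the series: 1 probe for Isg15, 2 for Usp18 and 1 for Ube2l6. No probe was named for Uba7 or Herc6, which were therefore not analysed here.

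ISG15 is a small protein built of ubiquitin-like folds whose gene is switched on by type I interferon. An E1 enzyme (UBA7), an E2 enzyme (UBE2L6) and an E3 ligase of the HERC family attach it to other proteins in a chain of steps that parallels ubiquitination, and USP18 removes it again. USP18 also binds an interferon receptor subunit and dampens further signalling. HERC6 takes the role in rodents that HERC5 has in humans. All of these genes are themselves induced by interferon, also in liver cells.

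Transcripts were measured in BRL-3A cells, an established Buffalo rat liver line that the labels call normal rat hepatocytes. The series addresses Tmub1, a transmembrane protein that itself carries a ubiquitin-like domain. There were 5 groups of 1 one-colour array each: cells given a lentivirus for Tmub1 overexpression, cells given a lentivirus for Tmub1 knockdown, cells given the negative control virus of the first, cells given the negative control virus of the second, and normal cells. RNA was collected 48 h after transduction. The labels used here do not give the virus dose, the promoter, the knockdown sequence or the share of cells transduced. With 1 array per group there are no replicates, no difference could be tested, and every value below describes single libraries. The intervals given come from the scanner software's error for each spot at 95% confidence and cover the spot reading alone.

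Each array gave 42877 non-control spots, none saturated, with 67.0% to 86.6% of probes well above background. The knockdown and normal arrays were brighter, with median processed signals of 356.2 and 329.4 against 116.4 to 159.7 on the other 3. The 4 arrays of transduced cells share 1 scan and the normal array has another, so scan and group cannot be told apart in comparisons with normal cells. Against the matching negative controls, Tmub1 was 3.65-fold lower (log2 -1.87, interval -2.27 to -1.47) on the knockdown array. It was 1.05-fold higher (log2 0.07, interval -0.33 to 0.47) on the overexpression array. On processed signals with no scaling between arrays, it was 1.77-fold lower with knockdown and 1.26-fold higher on the overexpression array. A rise of Tmub1 was thus not detectable there, and the sources used here do not say whether its probe reads the virus-borne transcript. Of 10 hepatocyte markers, 6 or 7 were well above background on each array, with median log2 levels of the 10 of -5.39 to -4.18. The lowest value well above background was -6.72 to -5.41 on the same scale. The liver enzyme genes Tat and Cps1 were below background on all 5, and Alb, the gene of serum albumin, on 3. Of 5 epithelial markers, 2 or 3 were well above background, with medians of -6.13 to -4.79. All 7 mesenchymal or stellate cell markers were well above background on every array, with median log2 levels of 2.54 to 2.90.

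Of the 5 genes, 3 are in the RefSeq promoter table (build GRCr8): Ube2l6, Uba7 and Herc6. The sequence of Ube2l6 is shown because it is the one of these 3 whose expression was measured, and it was highest on the same array as Isg15. It covers the 250 bases before the annotated start, chr3:90279455-90279704, plus strand, written 5′ to 3′ in lower case, with no capitals because neither motif searched was found in it.

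Ube2l6: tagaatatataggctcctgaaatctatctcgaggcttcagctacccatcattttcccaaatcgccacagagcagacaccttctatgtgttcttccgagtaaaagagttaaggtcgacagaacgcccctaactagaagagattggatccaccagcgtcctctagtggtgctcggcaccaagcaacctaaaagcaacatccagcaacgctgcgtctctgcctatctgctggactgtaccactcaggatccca

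The motifs were the interferon-stimulated response element in the form GAAA, any 2 bases, GAAA, and the gamma-activated site in the form TTC, any 3 bases, GAA, each on both strands; the 2 forms may overlap each other. Neither form occurred in the Ube2l6, Uba7 or Herc6 windows of 250 bases before to 50 bases after the start. Among 27457 rat promoters of that length, 3.77% held the first form and 8.68% the second. These counts say only that the exact letters are not in these windows.

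Isg15, the modifier itself, was read by probe A_44_P1013314. Its processed signal, the background-subtracted brightness in intensity units, was 64.0 in normal cells, 394.2 with the overexpression negative control, 6958 with overexpression, 2753 with the knockdown negative control and 455.6 with knockdown. After each array was scaled by subtracting the 75th percentile of its log2 values, the log2 levels in the same order were -4.39, -0.49, 3.39, 2.00 and -1.64. The overexpression array was the highest and the normal array the lowest. Over the 5 arrays Isg15 spanned 219-fold, and over the 4 transduced arrays 32.5-fold. Each step in this order was larger than its scanner interval: the smallest, from the overexpression negative control down to knockdown, was -1.14 (-1.54 to -0.74) in log2. That step was -1.32 to -0.77 under the 5 other normalizations, but 0.21 on processed signals with no scaling between arrays, an alternative chosen after seeing the data, so its direction rests on the scaling. In the authors' deposited table, which holds log2 values on another scale, Isg15 stood at 4.75, 9.32, 12.92, 11.68 and 8.0 in the same order of arrays.

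Usp18, the protease that takes ISG15 off its targets, has 2 probes, and the one with the higher mean, A_64_P157059, stands for the gene. Its processed signals were 54.1 in normal cells, 167.1 with the overexpression negative control, 1078 with overexpression, 962.7 with the knockdown negative control and 380.9 with knockdown. The log2 levels were -4.63, -1.73, 0.70, 0.49 and -1.90. The overexpression and knockdown negative control arrays were high and close together, the overexpression negative control and knockdown arrays were lower and close together, and normal cells were lowest. The differences within these pairs, 0.21 (-0.19 to 0.61) and -0.16 (knockdown minus overexpression negative control, -0.57 to 0.24), lay within the scanner intervals. The probe's range was 40.2-fold over the 5 arrays and 6.03-fold over the transduced ones.

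The other Usp18 probe, A_44_P284200, gave processed signals of 175.8, 101.8, 514.3, 543.9 and 332.9 in the same order of arrays, or log2 levels of -2.93, -2.45, -0.37, -0.34 and -2.09. It too was high on the overexpression and knockdown negative control arrays. Among the transduced arrays the differences given by the 2 probes were at most 0.87 log2 apart. Against normal cells they were 1.90 to 2.77 log2 apart, with A_64_P157059 giving the larger difference each time. The size of the Usp18 difference from normal cells therefore depends on the probe.

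Ube2l6, the E2 enzyme that passes ISG15 from UBA7 to the ligase, was read by probe A_44_P1007008. Its processed signals were 2545 in normal cells, 2307 with the overexpression negative control, 4829 with overexpression, 3936 with the knockdown negative control and 1727 with knockdown. The log2 levels were 0.92, 2.05, 2.86, 2.52 and 0.29. Ube2l6 was lowest with knockdown, below normal cells, where Isg15 and Usp18 were lowest in normal cells. The 2 highest arrays, overexpression and the knockdown negative control, differed by 0.34 (-0.06 to 0.74), within the scanner interval. Its range over the 5 arrays, 5.96-fold, was reached among the transduced arrays alone.

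**Figure D1:**
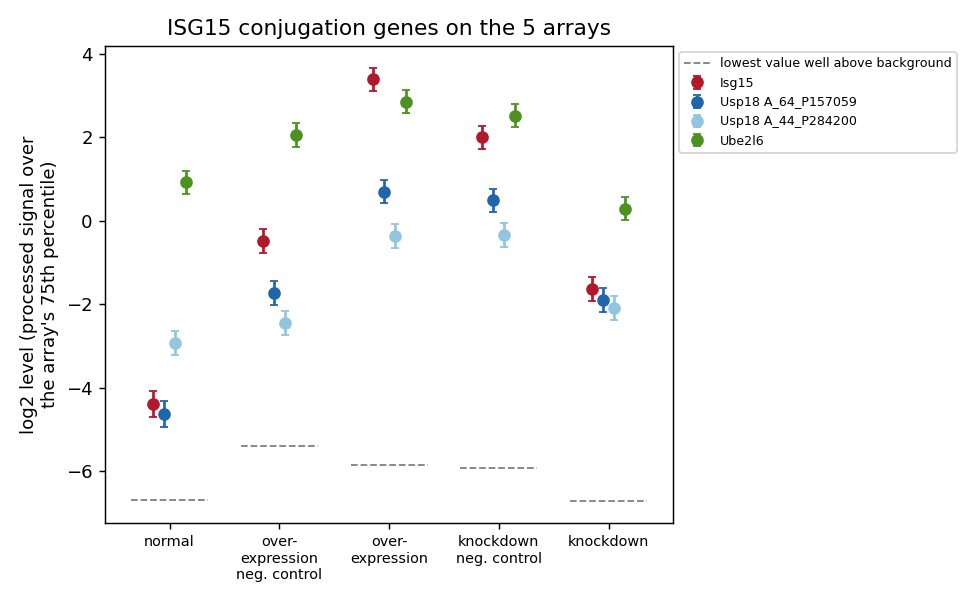
Log2 level of each probe (processed signal over the array's 75th percentile, vertical axis) on the 5 arrays (horizontal axis). Points are single arrays, bars are 95% scanner intervals, and dashed lines mark the lowest value well above background on each array. Heights are to be compared along one colour, not between probes; all 4 probes lie above the dashed line on every array, and Isg15 runs from -4.39 in normal cells to 3.39 with overexpression.

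The overexpression virus was set against its own negative control to see which genes differ when the cells carry the Tmub1 vector. Isg15 was 14.7-fold higher (log2 3.88, interval 3.48 to 4.28). Usp18 was 5.38-fold higher (2.43, 2.03 to 2.83), and 4.22-fold by its other probe. Ube2l6 was 1.75-fold higher (0.81, 0.41 to 1.21), below the 2.5-fold threshold that the series' design text names. A gene counts as past the threshold when the difference reached 2.5-fold and the brighter array was well above background; a dimmer value below background was set to the lowest value well above it. By this rule 2 of the 3 measured genes were higher and 0 lower, against 1.71% of all genes higher and 1.01% lower.

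These differences depended on the reference array. Against the negative control of the knockdown virus, Isg15 was 2.61-fold higher with overexpression (1.38, 0.98 to 1.78), Usp18 1.16-fold and Ube2l6 1.27-fold, and the intervals of the last 2 included 0. That left 1 of 3 past the threshold, against 1.92% of all genes higher. The Isg15 difference was 1.22 to 1.42 log2 under the 5 other normalizations, some of them below the threshold, which left 0 to 1 of 3.

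The knockdown virus was set against its own negative control in the same way. All 3 measured genes were lower: Isg15 by 12.5-fold (log2 -3.64, interval -4.04 to -3.24), Usp18 by 5.21-fold (-2.38, -2.78 to -1.98; 3.37-fold by its other probe) and Ube2l6 by 4.70-fold (-2.23, -2.63 to -1.83). Of all genes, 10.1% were lower and 8.53% higher past the threshold in this comparison. The median log2 difference of all genes was -0.17, and the knockdown array was the brightest of the 5. Without scaling between arrays, the log2 differences were -2.59 for Isg15, -1.34 for Usp18 and -1.19 for Ube2l6, and Ube2l6 was no longer past 2.5-fold.

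Against the negative control of the overexpression virus the knockdown array looked different. Ube2l6 was 3.41-fold lower (-1.77, -2.17 to -1.37), Isg15 2.21-fold lower and Usp18 1.12-fold lower, the last within its scanner interval and of opposite sign by its other probe (0.36). As reported, Ube2l6 alone of the 3 passed the threshold, against 16.1% of all genes lower. Under the 5 other normalizations 0 to 2 were lower, with Ube2l6 at -1.52 to -1.24. Without scaling the log2 differences were -0.42 for Ube2l6, 0.21 for Isg15 and 1.19 for Usp18, so none was lower past the threshold and the direction of the last 2 turned.

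The 2 negative controls differed from each other in the same genes. With the knockdown negative control Isg15 was 5.64-fold higher than with the overexpression negative control (2.50, 2.10 to 2.90), Usp18 4.65-fold (2.22, 1.82 to 2.62) and Ube2l6 1.38-fold (0.46, 0.06 to 0.86). Past the threshold, 2 of 3 were higher and 0 lower, against 5.22% and 3.38% of all genes. For Usp18, the difference between the controls was nearly as large as either Tmub1 virus's difference from its own control. Since the overexpression control is the lower one and the knockdown control the higher one, the choice of control acts on both comparisons. Set directly against each other, the overexpression array was above the knockdown array by 32.5-fold for Isg15, 6.03-fold for Usp18 and 5.96-fold for Ube2l6, with 3 of 3 past the threshold against 14.4% of all genes higher. Without scaling these were 15.3-, 2.83- and 2.80-fold.

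**Figure D2:**
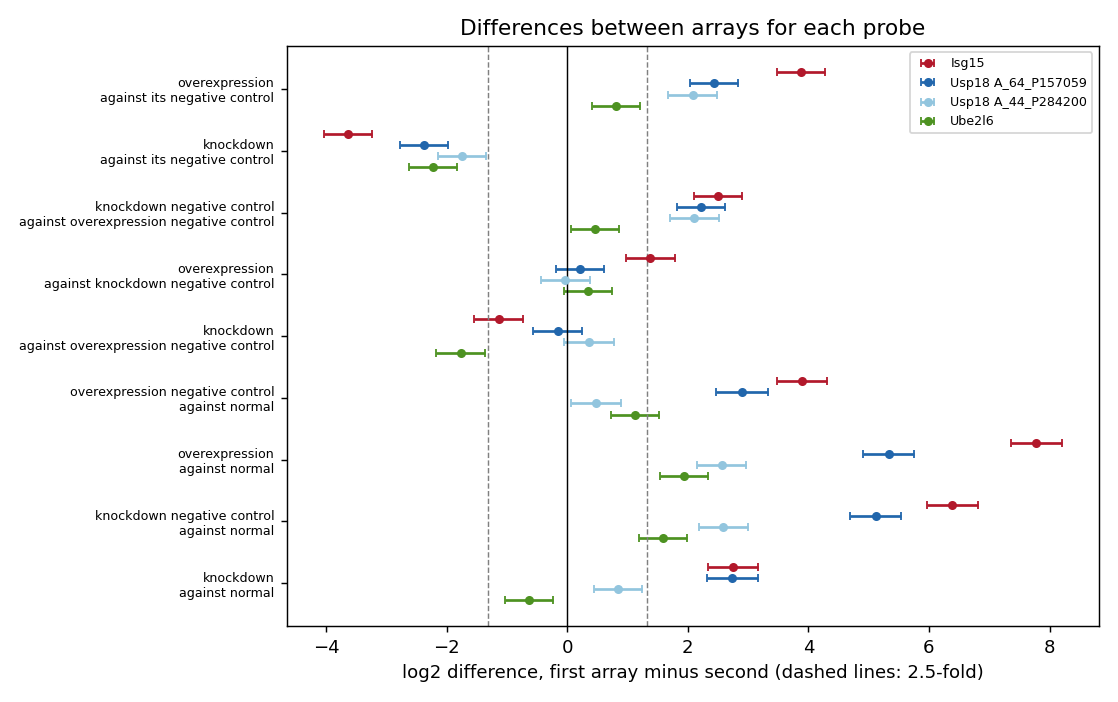
Log2 difference between pairs of arrays (horizontal axis, first named minus second) for the 4 probes in 9 comparisons (vertical axis). Points are differences of single arrays, bars are 95% scanner intervals and dashed lines mark 2.5-fold; for overexpression against the knockdown negative control, both Usp18 probes and Ube2l6 have intervals that cross 0, and against normal cells the Usp18 probes separate.

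Compared with normal cells, Isg15 and Usp18 were higher on every transduced array after scaling. Isg15 was 219-fold higher with overexpression, 84.0-fold with the knockdown negative control, 14.9-fold with the overexpression negative control and 6.74-fold with knockdown. Usp18 was 40.2-, 34.7-, 7.46- and 6.67-fold higher in that order by A_64_P157059, and 5.90-, 6.04-, 1.40- and 1.79-fold higher by A_44_P284200. Ube2l6 was 3.82-, 3.02- and 2.19-fold higher on the first 3 of these arrays and 1.56-fold lower with knockdown (log2 -0.64, -1.04 to -0.24). Without scaling between arrays, Ube2l6 stood at -0.14 log2 for the overexpression negative control against normal, and Usp18 by A_44_P284200 at -0.79, so the direction of these differences rests on the scaling. Ube2l6 stood at 0.92 with overexpression and 0.63 with the knockdown negative control, no longer past 2.5-fold. Genes past the threshold numbered 3 of 3 higher with overexpression (7.26% of all genes), 3 with the knockdown negative control (7.06%), 2 with the overexpression negative control (7.6%) and 2 with knockdown (11.2%). None of the 3 was lower past the threshold, where 9.38%, 9.52%, 9.93% and 19.3% of all genes were.

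Some markers of other cell types moved with this comparison. Of 11 macrophage or leukocyte markers, 10 have a named probe; 5 of these were well above background in normal cells and 7, 7, 7 and 8 with the overexpression negative control, overexpression, the knockdown negative control and knockdown. Their median log2 level was -6.41 in normal cells and -3.32 to -2.85 on the transduced arrays. Ptprc, the gene of the leukocyte antigen CD45, and Lyz2, the gene of macrophage lysozyme, were below background in normal cells and well above it on the 4 others. The T cell gene Cd3e and the integrin gene Itgal were below background on all 5 arrays. Of 4 endothelial markers, 3 were well above background in normal cells and 4 on each transduced array. The exception, Pecam1, was at least 14.5- to 31.0-fold higher on the transduced arrays. Kdr was 1.07-fold higher with the overexpression negative control and 1.83- to 3.78-fold lower on the other transduced arrays. The median of the 4 endothelial markers ran from -0.33 to 0.19 log2 against normal cells. Of the hepatocyte markers, Tf, the gene of transferrin, was 9.15- to 19.4-fold higher on the transduced arrays than in normal cells. Others on that list were lower there, Cyp2e1 by 1.45- to 9.73-fold and Serpina1 by 2.07- to 3.52-fold. The list median ran from -1.02 to -0.21 log2 against normal cells, where that of all genes ran from -0.35 to -0.05. Past the threshold, 1 to 2 of the 7 or 8 that could be called were higher and 1 to 2 lower. Of all genes, 7.06% to 11.2% were higher and 9.38% to 19.3% lower. The part of these markers in the differences from normal cells was not tested. Among the transduced arrays Ptprc spanned -3.73 to -3.06 and Lyz2 1.62 to 2.19, both highest with the overexpression negative control, while Cd14, the gene of a monocyte receptor, spanned 0.95 to 2.24 and was lowest there. In such bulk samples, fewer cells of a type and less RNA per cell cannot be told apart.

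**Figure D3:**
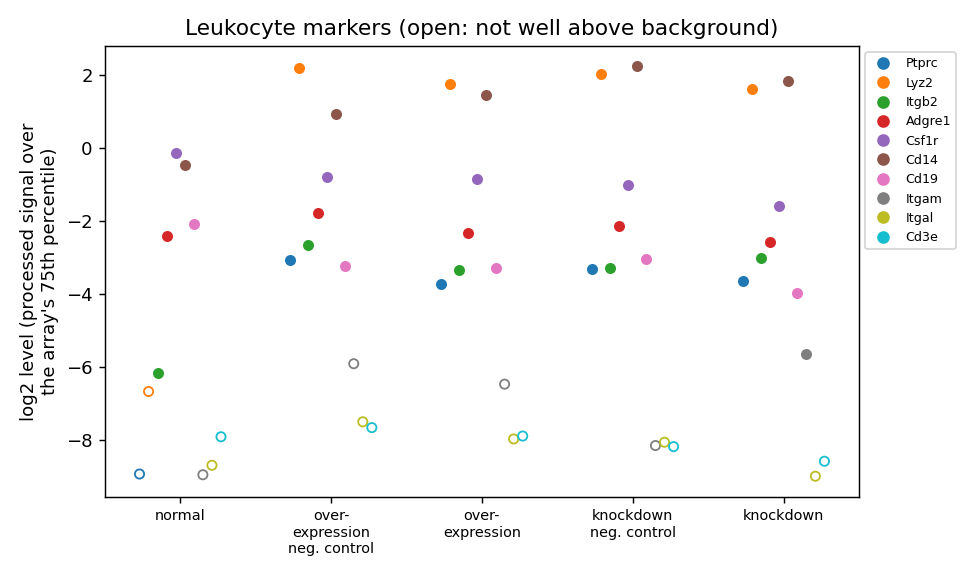
Log2 level (vertical axis, processed signal over the array's 75th percentile) of the 10 macrophage or leukocyte markers with a named probe on the 5 arrays (horizontal axis). Filled points are well above background and open points are not; Ptprc and Lyz2 are open in normal cells alone, at -8.92 and -6.66.

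Interferon signalling genes act before the pathway. Type I interferon binds IFNAR1 and IFNAR2, the kinases JAK1 and TYK2 activate transcription factors such as STAT2, which acts with IRF9 to switch on genes such as Isg15. Of 17 listed signalling genes, 15 were measured. Irf7, a transcription factor that amplifies interferon production, stood at -0.62 in normal cells, 1.20 with the overexpression negative control, 4.13 with overexpression, 3.37 with the knockdown negative control and 0.73 with knockdown. It was the 1 signalling gene of 15 past the threshold with overexpression against its control, at 7.66-fold higher, with 0 lower. Of all genes, 1.71% were higher and 1.01% lower. The list median was 0.17 against 0.00 for all genes. With knockdown against its control 4 of 15 were lower and 0 higher, where 10.1% of all genes were lower and 8.53% higher. The list median was -0.16 against -0.17 for all genes. Among the 4, Irf7 was lower by 6.22-fold, the feedback inhibitor Socs1 by 3.96-fold and Stat2 by 2.58-fold. Under the 5 other normalizations 2 to 3 were lower and 2 higher there. Between the negative controls Irf7 (4.5-fold) and Socs1 (4.42-fold) were higher with the knockdown control, where 5.22% of all genes were higher. Against the opposite controls Irf7 was 1.7-fold higher with overexpression and 1.38-fold lower with knockdown, both under the threshold. Ifnb1, the gene of interferon beta, had log2 levels of -5.37 in normal cells, -5.37 with overexpression and -6.40 with knockdown, and was not well above background with either negative control.

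Genes induced by interferon outside the pathway were counted in the same comparisons. Of 43 listed, 37 have a probe. With overexpression against its control 13 of the 34 that could be called were higher and 0 lower, with a median of 1.1; Ifit3, which restrains viral translation, was 10.5-fold higher, Oasl2, a relative of the RNA-sensing oligoadenylate synthetases, 7.91-fold, Rtp4 6.98-fold and Rsad2, the gene of the antiviral enzyme viperin, 6.81-fold. With knockdown against its control 18 of 35 were lower and 1 higher, with a median of -1.38. Rsad2 was 13.1-fold lower, the antiviral GTPase gene Mx2 9.12-fold, Rtp4 7.97-fold and Ifi44 7.52-fold, and Adar, the gene of an RNA-editing enzyme, was 2.68-fold higher. Ifit3 was not among those lower, at -0.03. Between the negative controls 7 of 35 were higher and 0 lower with the knockdown control, with a median of 0.93 against 0.00 for all genes. Under the 5 other normalizations 7 to 14, 13 to 16 and 4 to 10 genes were past the threshold in these directions. Of all genes, 1.71%, 10.1% and 5.22% were past it in the same directions. These counts too depended on the reference array. With overexpression against the knockdown negative control 3 of 34 were higher and 0 lower, with a median of 0.27. Of all genes 1.92% were higher there. With knockdown against the overexpression negative control 8 of 35 were lower and 3 higher, where 16.1% of all genes were lower. The median was -0.19, the same as for all genes. Under the 5 other normalizations 1 to 3 were higher in the first and 4 to 5 lower in the second. Against normal cells 14 of 33 were higher and 2 lower with the overexpression negative control, and 26 and 1 of 34 with overexpression. With the knockdown negative control 27 and 1 of 35 were, and with knockdown 14 and 1 of 35. Of all genes, 7.6%, 7.26%, 7.06% and 11.2% were higher in that order, and 9.93%, 9.38%, 9.52% and 19.3% lower. Under the 5 other normalizations 8 to 14, 20 to 28, 21 to 27 and 6 to 18 of the listed genes were higher.

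Other enzymes of ubiquitin-like conjugation were mostly within 2.5-fold, as were most of all genes. The E1 enzymes of ubiquitin and its other relatives, 8 measured, had 0 past the threshold with either Tmub1 virus against its own control or between the controls. Per direction, 1.01% to 10.1% of all genes passed it there. With knockdown against the overexpression negative control 3 of 8 were lower (Nae1, Uba1 and Sae1), where 16.1% of all genes were. Under the 5 other normalizations 1 to 2 were lower and 0 to 1 higher. With overexpression set against knockdown 2 of 8 were higher, where 14.4% of all genes were, and 0 to 2 under the 5 other normalizations. Of the 26 measured E2 enzymes, Ube2s, an E2 of the anaphase-promoting complex, was higher with overexpression (2.53-fold; log2 1.07 to 1.38 under the 5 other normalizations, some below the threshold), and between the controls it was 3.96-fold higher with the knockdown control. With knockdown against its control 3 E2 genes were higher, Ube2j1 (3.33-fold), Ube2q1 (3.29-fold) and Ube2f (3.06-fold), and 3 lower, Atg10 (3.95-fold), Ube2v1 (3.01-fold) and Ube2d1 (2.87-fold). That is 3 of 26 each way, where 8.53% of all genes were higher and 10.1% lower. Under the 5 other normalizations 4 were higher and 1 to 2 lower, and Ube2v1, at -1.28 to -0.88 log2, was under 2.5-fold in each. No probe was named for Ube2l3, the closest relative of Ube2l6.

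The other HERC genes stand in for what can be read of the ligase family, without Herc6. Herc2, Herc3 and Herc4 lay at log2 differences of 0.07, -0.38 and -0.03 with overexpression against its control. With knockdown against its control Herc3 was 2.62-fold lower (-1.39; -1.50 to -0.78 under the 5 other normalizations), Herc4 stood at -0.87 and Herc2 at 0.55. Among 7 other reported ISG15 ligases and proteases, 0 passed the threshold with overexpression or between the controls. Trim25, a ligase that activates the RNA sensor RIG-I, was 3.82-fold lower with knockdown. It was the 1 of these 7 past the threshold there, as Herc3 was the 1 of the 3 HERC genes. For knockdown against its control, 10.1% of all genes were lower and 8.53% higher. The shares lower and higher were 1.01% and 1.71% for overexpression, and 3.38% and 5.22% between the controls.

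Among 25 other measured ubiquitin-specific proteases, Usp19, an enzyme of the endoplasmic reticulum, was 4.08-fold higher with overexpression and 6.98-fold higher with the knockdown negative control than with the overexpression negative control. It was the 1 protease of 25 past the threshold in each, where 1.71% and 5.22% of all genes were higher. With knockdown Usp11 was 6.05-fold higher, and Usp25 (2.87-fold), Usp42 (2.76-fold) and Usp4 (2.68-fold) were lower. That is 1 of 25 higher and 3 lower, where 8.53% of all genes were higher and 10.1% lower. Under the 5 other normalizations 1 to 3 were higher and 0 to 4 lower. Usp19 levels were -0.70, -2.98, -0.95, -0.18 and 0.23 in normal cells, the overexpression negative control, overexpression, the knockdown negative control and knockdown, so it was lowest with the overexpression negative control and between -0.95 and 0.23 on the other 4 arrays.

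Of the 4 ubiquitin genes, 2 were lower with knockdown, among them Rps27a (2.73-fold), where 10.1% of all genes were lower. Under each of the 5 other normalizations 0 of 4 passed. The 10 other ubiquitin-like modifiers had 0 past the threshold with either Tmub1 virus against its own control or between the controls. Per direction, 1.01% to 10.1% of all genes passed it there. With knockdown against the overexpression negative control 2 of 10 were lower, where 16.1% of all genes were. Of the proteins reported as ISG15 substrates, 15 could be called. With overexpression 0 passed and the list median was 0.69 against 0.00 for all genes. With knockdown 3 were higher, among them the autophagy gene Becn1 (4.62-fold) and the phospholipase gene Plcg1 (2.79-fold). The 3 lower ones included Trim25 and the antiviral GTPase gene Mx1 (3.60-fold). That is 3 of 15 each way, where 8.53% of all genes were higher and 10.1% lower. Trim25 and Mx1 are themselves induced by interferon.

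**Figure D4:**
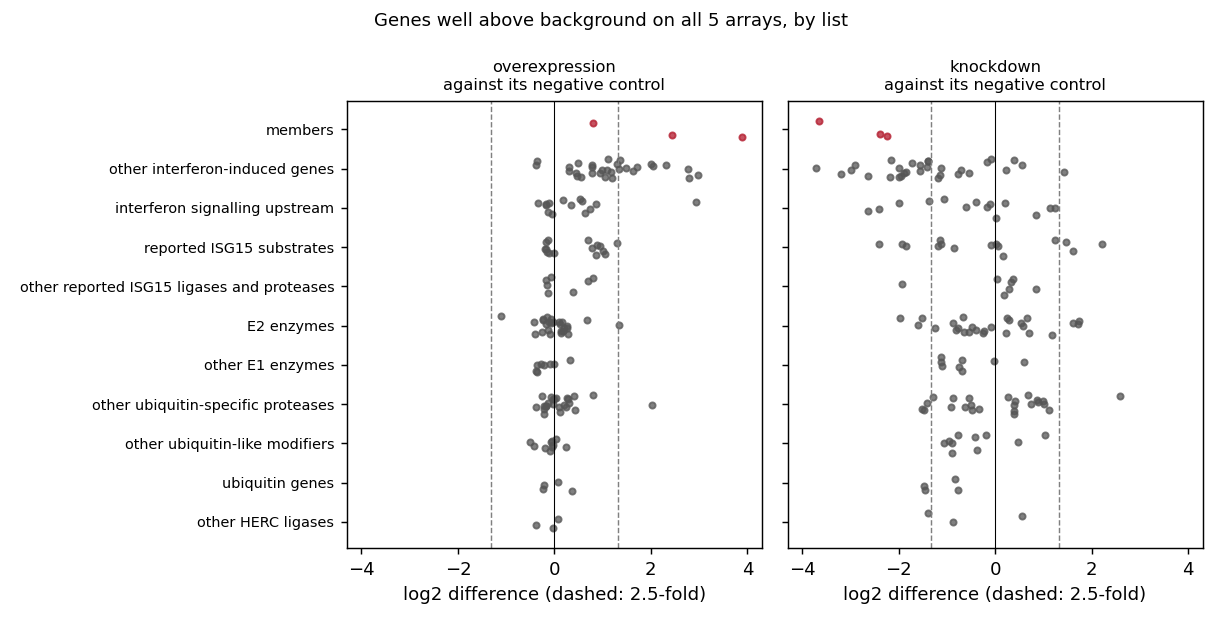
Log2 differences (horizontal axis) of the genes of each list (vertical axis) whose signal was well above background on each of the 5 arrays, for overexpression (left) and knockdown (right), each against its own negative control. Points are single genes, spread vertically for legibility, with the ISG15 pathway genes in red, and dashed lines mark 2.5-fold; Isg15 is the red point farthest out in both panels, at 3.88 and -3.64.

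The genes with the pattern most like that of Isg15 were found among 10681 genes well above background on all 5 arrays, by the root mean square difference between log2 levels after each gene's own 5-array mean was subtracted. Outside the pathway genes, which were left out of the ranking, the nearest were Mlana, a melanocyte antigen gene, at 0.28 log2, Rsad2 at 0.46, Rtp4 at 0.65, the interferon-induced chemokine gene Cxcl10 at 0.78 and Etv5, a transcription factor gene, at 1.01. Of the pathway genes, Usp18 stood at 0.91 from Isg15, nearer than Etv5, and Ube2l6 at 1.99. Mlana had log2 levels of -5.11, -1.74, 2.05, 0.66 and -2.39 in normal cells, the overexpression negative control, overexpression, the knockdown negative control and knockdown. The other genes nearest the mean of the 3 measured pathway genes were Irf7 at 0.27, Phf11 at 0.40, Car8 at 0.43, Cmpk2, the gene of a mitochondrial nucleotide kinase, at 0.49 and Rtp4 at 0.53. Under each of the 5 other normalizations 4 or 5 of the 5 were again in the first 5. The 5 points compared are the same 5 arrays for every gene.

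**Figure D5:**
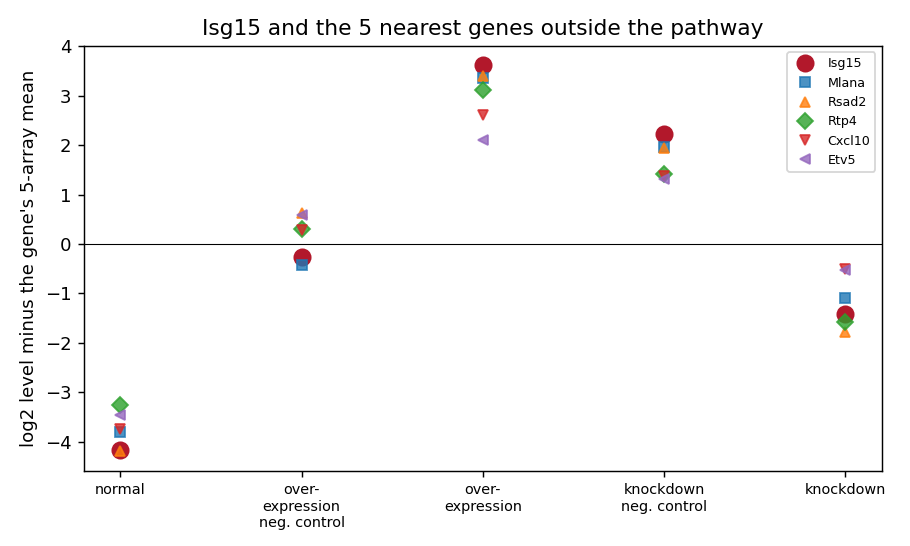
Log2 level minus each gene's mean over the 5 arrays (vertical axis) for Isg15 and the 5 genes nearest to it outside the pathway, on the 5 arrays (horizontal axis). Points are single arrays; all 6 genes are lowest in normal cells and highest with overexpression.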

How the data were processed

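BRL-3A RNA was labelled with Cy3 and hybridised to one-colour Agilent arrays, 1 per group, per the labels. The deposited scanner files hold processed signals in intensity units, background-subtracted by Feature Extraction 11.0.1.1 per the file headers; the submitters' processing notes name version 9.1. The authors' deposited table is in log2 units with a median of 6.685 on each array; which normalization software made it is not stated in the sources used here.

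Control spots and outlier spots were left out, spots of a probe were averaged, and each array's 75th percentile of log2 values was subtracted. Probes were named by accession through RefSeq's rat table (GRCr8): 18004 had 1 gene and 12362 stayed unnamed. Where a gene had several probes, the one with the highest mean stood for it. The arrays were designed on an older build, so probe positions are not given. Precision is limited by the number of arrays.

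The genes and lists were chosen with earlier results of these data known. Named genes were the pathway genes, Tmub1, the HERC genes, up to 4 past the threshold per list and direction, and the 5 nearest patterns; some genes that this rule takes are not reported here. The calling was tested on simulated data. Alternatives were quantile normalization, cyclic loess and normexp (offset 50, limma 3.58.1, on median pixel signals), the percentile over detected probes, the authors' table, other filters, thresholds of 2 and 4, probe averaging and other reference arrays, and, added after seeing the data, the other Usp18 probe and no scaling between arrays.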

Additional observations from a re-analysis of the deposited data

How the results depend on the processing

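No paired analysis was possible because each group has 1 array, and for the same reason no array could be left out. In the comparisons of each virus with its own control, between the controls, with normal cells and of overexpression with knockdown, the pathway genes' counts past 2.5-fold changed by over 1.5 times with the reference array or the Usp18 probe. Against the opposite control they also changed with the normalization: from 1 higher to 0 for overexpression, and from 1 lower to between 0 and 2 for knockdown. Genes higher with overexpression went from 2 to 1 with the other negative control or the mean of the 2 as reference. Genes lower with knockdown went from 3 to 1 with the other negative control and to 0 with normal cells, where 2 were higher: Isg15 at 2.75 and Usp18 at 2.74, a reversed direction. With the other Usp18 probe, an alternative chosen after seeing the data, genes higher than in normal cells went from 2 to 1 for the overexpression negative control and for knockdown. Of 306 alternative values of single genes, 237 moved by less than the scanner interval, 67 by more, and 2 that had been past the threshold changed sign. Sign changes of differences under the threshold are counted among the first 2 kinds. The 237 include values that could not move. Thresholds of 2 and 4 and the filters, 24 values each, leave these genes' log2 differences unchanged. Probe averaging and the other Usp18 probe cannot move Isg15 or Ube2l6, with 1 probe each. Under the 5 other normalizations 0 (percentile over detected probes) to 11 (normexp) of 24 moved by more, and without scaling 15 of 24.

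Over all genes, normexp gave fewer past the threshold, and the cause was not tested: 67 in place of 321 for overexpression against its control, 1205 of 2363 for knockdown, 351 of 1017 between the controls, 1659 of 3259 for overexpression against knockdown, and against normal cells 687 of 2358, 718 of 2248, 764 of 2238 and 1851 of 4188 for the overexpression control, overexpression, the knockdown control and knockdown. The share of these that were higher ranged over the normalizations from 51.7% to 67.8% (62.9% as reported) for overexpression, 45.7% to 71.2% (45.7%) for knockdown, 54.7% to 66.8% (60.7%) between the controls and 33.6% to 56.1% (56.1%) for overexpression against knockdown, and in the 4 comparisons with normal cells from 24.3% to 77.3%. The percentile over detected probes moved the median of all genes for knockdown from -0.17 to 0.09.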
